A study of Homo sapiens with 4 samples.

Results

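The genes that move iron into a cell, store it, release it and sense it were compared between sorted cells with and without a GATA2 reporter. The set holds 10 genes chosen by symbol: TFRC, TFR2, STEAP3 and SLC11A2 for uptake, FTH1 and FTL for storage, SLC40A1 for export, HMOX1 for heme breakdown, and IREB2 and ACO1 for control by iron. All 10 were found among the 28285 gene rows of each library, and all 10 reached the level needed for testing. The established cell line H1, made of human embryonic stem cells, was the source. Its GATA2 locus, a gene of blood stem and progenitor cells, carried the reporter eGFP, a green fluorescent protein. The GFP-positive fraction was eGFP+CD34+CD31+CD43- and was given as hemogenic endothelium, the endothelium that yields blood cells. The GFP-negative fraction was eGFP-CD34+CD31+CD43- and was given as endothelial cells, although the source name of every sample reads hemogenic endothelium. Both fractions shared the H1 line, the knock-in (GATA2w/eGFP in the design) and the mention of Cre in the titles, whose use is not explained. There were 2 libraries of each fraction. Whether replicates were separate cultures is not stated in the labels. P-values therefore measure the spread between these libraries, which may be technical.

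Iron reaches most cells bound to transferrin, which the transferrin receptor carries into endosomes. There a reductase of the STEAP family converts the iron and a divalent metal transporter passes it to the cytosol. Iron not needed at once is held in ferritin, a hollow shell of heavy and light chains, or leaves through ferroportin, the only known iron exporter of vertebrate cells. Developing red cells take up large amounts of iron for heme, and macrophages release iron from the heme of old red cells. When iron is scarce, the iron regulatory proteins, made by ACO1 and IREB2, bind iron-responsive elements (IREs), short hairpins in certain messenger RNAs. Binding near the start of a message blocks its translation, and binding behind the coding part protects the message from decay.

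The IRE sequences are shown because they bear on how some messages of the set can be controlled, a feature that the choice by symbol did not read. Annotated coding transcripts (GENCODE v29, GRCh38) were searched on the sense strand for a C followed by 5 bases, the loop CAGTGN and 5 more bases, in which all 5 bases before the loop had to pair with the 5 after it, G with T allowed. Of the 10 genes, 4 had a match in an untranslated region (UTR), against 169 of 19684 coding genes (0.859%). The element is known from such genes, so this share is a description and not a test. The 5′ UTR held the match in FTH1 (chr11:61967575-61967601, minus strand), FTL (chr19:48965336-48965362, plus strand) and SLC40A1 (chr2:189580662-189580688, minus strand). It lay in 7 of 8 annotated coding transcripts of FTH1, 1 of 1 of FTL and only 1 of 5 of SLC40A1. The 3′ UTR of TFRC held 4 matches within chr3:196050464-196051006 on the minus strand, each in 3 of its 4 annotated coding transcripts. Levels by gene do not show which transcripts were present. Capitals mark the loop bases between the paired arms.
FTH1: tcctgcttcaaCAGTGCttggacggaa
FTL: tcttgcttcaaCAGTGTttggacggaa
SLC40A1: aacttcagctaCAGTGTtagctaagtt
TFRC, site 1: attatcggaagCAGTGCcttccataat
TFRC, site 2: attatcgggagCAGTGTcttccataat
TFRC, site 3: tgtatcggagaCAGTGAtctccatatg
TFRC, site 4: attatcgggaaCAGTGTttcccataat
The ferritin elements differed from each other at 2 of 27 bases, and those of FTH1 and SLC40A1 at 14 of 27. The TFRC sites differed among themselves at 2 to 10 of 27 bases. The remaining 6 genes had no match of this strict shape, which also misses elements with extra bulged bases. The lack of a match therefore does not show that a gene has no IRE. A match is a description of the sequence and says nothing about binding in these cells.

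The unit of level is TPM, an estimate of transcript abundance scaled to a common total in each library, which takes account of transcript length and so allows genes to be compared. Single values of the set ran from 1.43 TPM to 3361 TPM. Ferritin dominated it: FTH1 and FTL together made up 96.6% and 96.7% of the TPM of the 10 genes in GFP-positive libraries, and 95.2% and 95.5% in GFP-negative libraries. FTL ranked between 15th and 38th, and FTH1 between 33rd and 45th, among all gene rows of a library. In GFP-positive cells the order by mean was FTL, FTH1, TFRC, IREB2, SLC11A2, ACO1, STEAP3, HMOX1, TFR2 and SLC40A1. TFRC overlapped IREB2, and HMOX1 overlapped its neighbours STEAP3 and TFR2, so these places in the order are not separated by the libraries. In GFP-negative cells IREB2 stood above TFRC, and HMOX1 stood above STEAP3 while overlapping both ACO1 and STEAP3. TFR2 and SLC40A1 overlapped at the bottom.

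**Figure D1:**
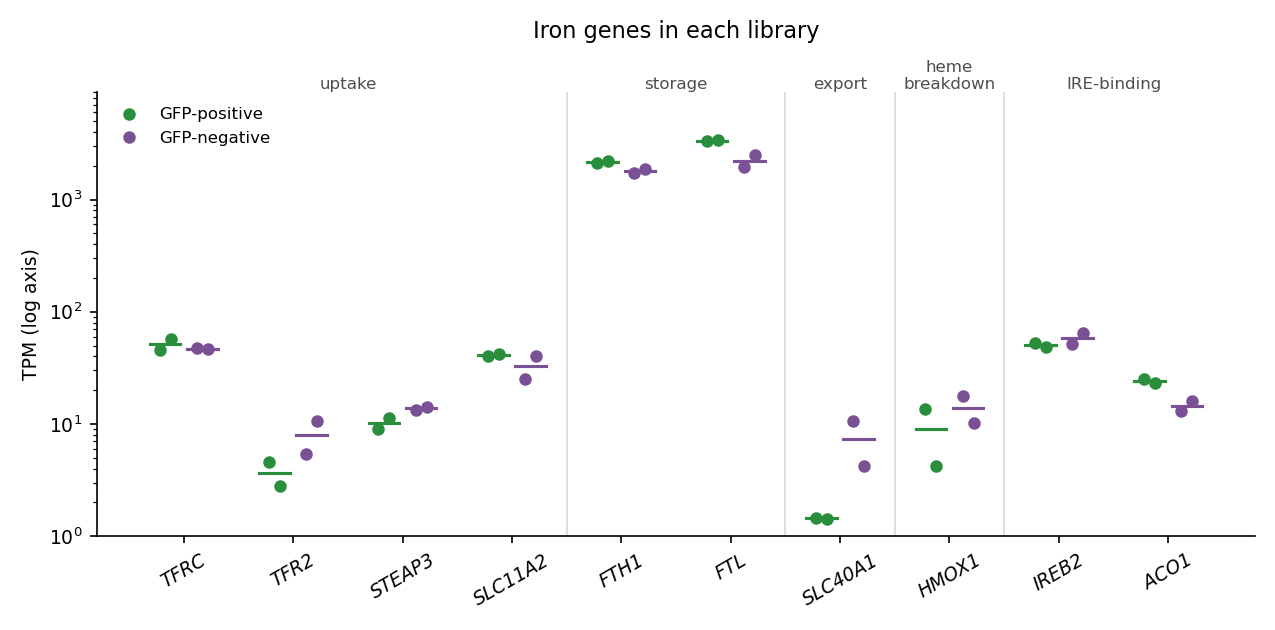
Level of each of the 10 iron genes in TPM on a log axis, by role. Points are single libraries (GFP-positive left, GFP-negative right of each gene), and bars are means of 2 libraries. Ferritin genes lie at 1713 TPM or above throughout, while SLC40A1 lies at 1.46 and 1.43 TPM in the GFP-positive libraries.

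No gene of the set passed the test between the fractions, but the genes did not all lie in the same place. Ferritin and ACO1 were more abundant in both GFP-positive libraries than in either GFP-negative one, and SLC40A1 and TFR2 were less abundant. The receptor TFRC stood at nearly the same level in both fractions. The test was limma on log2(TPM + 1), fitted over the 15425 genes that reached 1 TPM in at least 2 libraries. Two-sided p-values were adjusted over all tested genes by Benjamini-Hochberg, and 0.05 was the threshold. By limma, 0 of 10 genes were called, against 0.447% of all tested genes, and 3 of 10 had an unadjusted p under 0.05 (2 higher, 1 lower), against 14.1% (6.69% higher, 7.38% lower). The 2 groups of libraries did not overlap for 7 of the 10 genes, 4 higher and 3 lower in GFP-positive cells, against 44.3% of all tested genes (22.8% higher and 21.5% lower). The median log2 fold change (GFP-positive minus GFP-negative) was -0.03 over the 10 genes and 0.02 over all tested genes, with 5 genes above 0 and 5 below. In bulk samples, fewer cells of a type and less RNA per cell cannot be told apart.

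**Figure D2:**
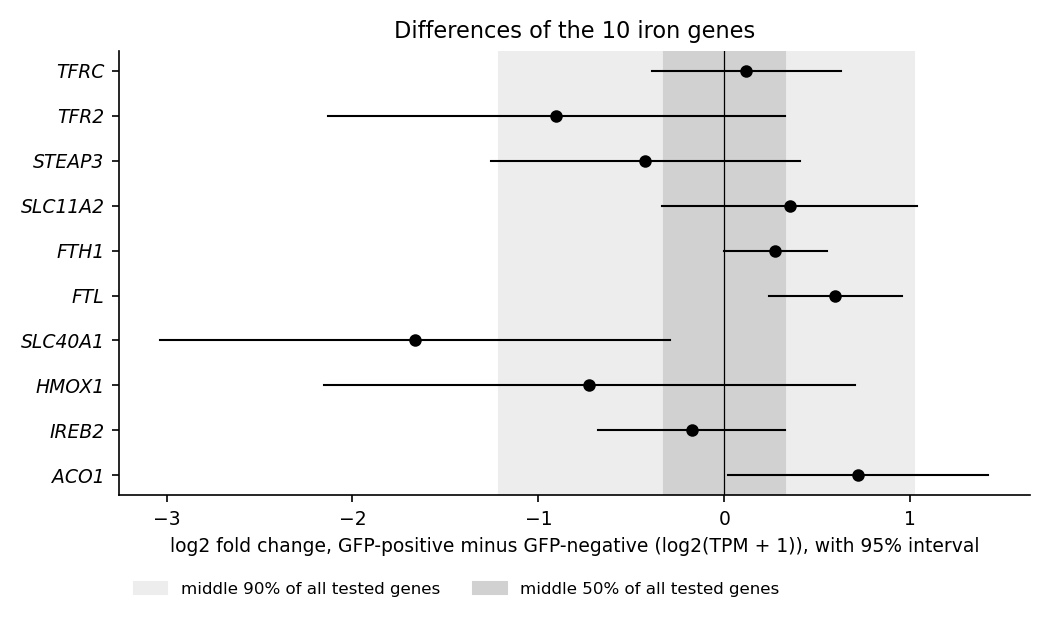
Log2 fold change of each gene, GFP-positive minus GFP-negative, on the log2(TPM + 1) scale, with the limma 95% interval of each. Grey bands hold the middle 50% and 90% of all 15425 tested genes, and SLC40A1 at -1.66 is the only one of the 10 points outside the wider band.

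Among the 4 uptake genes, 1 was higher and 2 were lower in both GFP-positive libraries, against 22.8% and 21.5% of all tested genes. TFRC overlapped. TFRC encodes transferrin receptor 1, the main entry route of transferrin-bound iron (ENSG00000072274; chromosome 3, 196027183 to 196082189, minus strand; this and the other gene positions are from GENCODE v29 on GRCh38). It had 45.99 and 56.65 TPM in GFP-positive libraries, against 47.07 and 46.84 TPM in GFP-negative libraries. One GFP-positive library was the highest of the 4 and the other the lowest. Its log2 fold change was 0.12 ± 0.21 (SE; 95% interval -0.39 to 0.63; limma adjusted p = 0.874), and it was -0.03 without GFP-positive replicate 2. The interval leaves room for a fold change in either direction on this scale. Cell cycle genes, which mark dividing cells, summed to 1347 and 1471 TPM in the GFP-positive libraries and 1301 and 1472 TPM in GFP-negative libraries. Limma called 0 of 10, and 2 had an unadjusted p under 0.05 (1 higher, 1 lower), against 14.1% of all tested genes. Single genes were less even than the sums. Libraries of the fractions did not overlap for 5 higher and 1 lower, against 22.8% and 21.5% of all tested genes.

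TFR2 encodes transferrin receptor 2, known from liver and erythroid cells (ENSG00000106327; chromosome 7, 100620416 to 100642779, minus strand). It had 4.56 and 2.81 TPM in GFP-positive libraries, against 5.43 and 10.52 TPM in GFP-negative libraries. Both GFP-positive libraries lay below both GFP-negative ones, by as little as 0.87 TPM between the nearest. Limma gave a log2 fold change of -0.90 ± 0.50 (SE; 95% interval -2.13 to 0.33; limma adjusted p = 0.493), or -0.48 if GFP-negative replicate 2 was left out. TFRC exceeded TFR2 in every library, by 10.1-fold and 20.2-fold in GFP-positive libraries and by 8.67-fold and 4.45-fold in GFP-negative libraries. The 8 hepatocyte-like markers summed to 16.2 and 17.35 TPM in GFP-positive libraries, against 58.3 and 90.2 TPM in GFP-negative libraries. None of them was at 0 in every library. APOA1 and TTR were the most abundant. APOA1 alone had 8.42 and 7.41 TPM in GFP-positive libraries, against 38.0 and 63.6 TPM in GFP-negative libraries. It made up most of both GFP-negative sums. TTR went the other way, with 6.14 and 6.18 TPM in GFP-positive libraries, against 3.06 and 4.66 TPM in GFP-negative libraries. Of the 6 tested, 5 lay below 0 and 1, TTR, above. Limma called 0 of them (2 at an unadjusted p under 0.05, against 14.1% of all tested genes). All 10 tested erythroid markers lay above 0, as did 7983 of all 15425 tested genes. The part of either marker list in the TFR2 difference was not tested.

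STEAP3 encodes the endosomal ferrireductase of the transferrin cycle (ENSG00000115107; chromosome 2, 119223831 to 119265652, plus strand). It had 8.95 and 11.24 TPM in GFP-positive libraries, against 13.4 and 14.24 TPM in GFP-negative libraries. The fractions did not overlap, but the log2 fold change of -0.42 ± 0.34 (SE; 95% interval -1.25 to 0.40) did not pass (limma adjusted p = 0.652). SLC11A2 encodes the divalent metal transporter DMT1, which moves the reduced iron out of the endosome (ENSG00000110911; chromosome 12, 50979401 to 51028566, minus strand). It had 40.33 and 41.77 TPM in GFP-positive libraries, against 25.36 and 40.21 TPM in GFP-negative libraries. GFP-negative replicate 2 lay only 0.12 TPM under the nearest GFP-positive library. The log2 fold change of 0.35 ± 0.28 (SE; 95% interval -0.34 to 1.04; limma adjusted p = 0.652) was 0.03 when GFP-negative replicate 1 was left out and 0.67 when GFP-negative replicate 2 was.

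Both ferritin genes were more abundant in both GFP-positive libraries, FTL by more than FTH1. FTL encodes the light chain, which helps iron to form a mineral core (ENSG00000087086; chromosome 19, 48965301 to 48966878, plus strand). It had 3326 and 3361 TPM in GFP-positive libraries, against 1956 and 2495 TPM in GFP-negative libraries. The GFP-positive libraries were close together, and the GFP-negative ones were spread over 1.28-fold. The ratio of means was 1.502, and the log2 fold change was 0.60 ± 0.15 (SE; 95% interval 0.24 to 0.96). This was the smallest p of the set, 0.00637 before adjustment, and it did not pass over all genes (limma adjusted p = 0.162).

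FTH1 encodes the heavy chain, which oxidises ferrous iron as it enters the shell (ENSG00000167996; chromosome 11, 61959718 to 61967660, minus strand). It had 2127 and 2199 TPM in GFP-positive libraries, against 1713 and 1866 TPM in GFP-negative libraries. All values in GFP-positive cells were above those in GFP-negative cells, with a ratio of means of 1.21. Its log2 fold change of 0.27 ± 0.11 (SE) had a 95% interval of -0.0025 to 0.55, which just includes 0 (limma adjusted p = 0.359). Together FTL and FTH1 took 0.547% and 0.558% of all TPM in GFP-positive libraries, against 0.368% and 0.437% in GFP-negative libraries. The annotation lists 25 pseudogenes of FTH1 by symbol and 16 of FTL, and the tables hold 0 rows for either. How reads shared with such copies were assigned is not given in the sources used here, so ferritin levels carry that uncertainty.

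The ratio of FTH1 to FTL was 0.640 and 0.654 in GFP-positive libraries, against 0.876 and 0.748 in GFP-negative libraries. FTL thus exceeded FTH1 in all 4 libraries, and its excess was larger in both GFP-positive ones. The ratio averaged 0.647 ± 0.0104 for the GFP-positive pair and 0.812 ± 0.0904 for the GFP-negative pair (SD, n = 2 each). The difference of -0.16 ran from -0.23 to -0.10 with each library left out in turn. The ratio was not tested. The smallest two-sided p that an exact permutation test of 2 against 2 libraries can give is 0.333. Erythroid markers, from the lineage with the greatest need of iron, also had higher sums in GFP-positive cells. They summed to 271 and 465 TPM in GFP-positive libraries, against 68.8 and 77.7 TPM in GFP-negative libraries. Of 15 such markers, 10 were tested. Limma called 1 of the 10 higher, against 0.123% of all tested genes, and 7 of the 10 were higher at an unadjusted p under 0.05, against 6.69%. The called gene was HBG2, a fetal globin, with 90.6 and 45.7 TPM in GFP-positive libraries, against 2.27 and 2.11 TPM in GFP-negative libraries (limma adjusted p = 0.0316). GYPB and HBE1 were the most abundant, and HBB and AHSP were at 0 in all 4 libraries. The part of such cells in the ferritin difference was not tested.

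**Figure D3:**
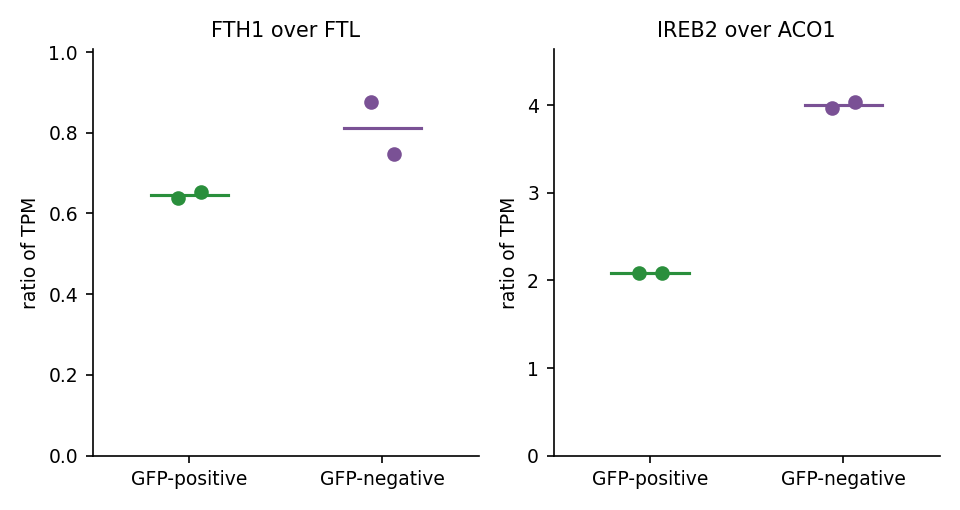
Ratio of TPM within each library for the ferritin chains (left panel) and the iron regulatory proteins (right panel), both axes from 0. Points are libraries and bars are means of 2. Both ratios are lower in GFP-positive libraries, at 0.640 and 0.654 for FTH1 over FTL and 2.09 in each for IREB2 over ACO1.

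SLC40A1, the gene of the exporter ferroportin, differed most on the log2 scale (ENSG00000138449; chromosome 2, 189560579 to 189583758, minus strand). It had 1.46 and 1.43 TPM in GFP-positive libraries, against 10.57 and 4.18 TPM in GFP-negative libraries. It was low in both GFP-positive libraries and higher but uneven in the GFP-negative ones, which differed by 2.53-fold. Means were 1.45 ± 0.0212 TPM for the GFP-positive pair and 7.38 ± 4.52 TPM for the GFP-negative pair (SD, n = 2 each), a ratio of 0.196. The log2 fold change of -1.66 ± 0.56 (SE; 95% interval -3.03 to -0.29) exceeded in size that of 96.2% of tested genes. It did not pass (limma adjusted p = 0.273) and was -1.08 with GFP-negative replicate 1 left out and -2.24 with GFP-negative replicate 2 left out. TFRC stood 31.5-fold and 39.6-fold above SLC40A1 in GFP-positive libraries, against 4.45-fold and 11.2-fold in GFP-negative libraries. With TFRC nearly level, this ratio mostly restates the SLC40A1 values. Neither it nor the ratio of TFRC to TFR2 was planned or tested.

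Macrophages are a known site of ferroportin, and their markers were read beside it. The 12 markers summed to 125 and 185 TPM in GFP-positive libraries and to 138 and 144 TPM in GFP-negative libraries. Of these, MARCO, C1QA and C1QB were at 0 in all 4 libraries. Limma called 0 of the 8 markers that reached testing (1 at an unadjusted p under 0.05, against 14.1% of all tested genes). The most abundant were FCER1G and CD68. FCER1G alone had 62.5 and 121 TPM in GFP-positive libraries, against 91.9 and 76.4 TPM in GFP-negative libraries, a large part of each sum. Of the 8, 4 lay above 0 and 4 below. The libraries of the fractions did not overlap for 2 higher and 2 lower ones, against 22.8% and 21.5% of all tested genes. The part of such cells in the SLC40A1 difference was not tested.

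HMOX1 encodes heme oxygenase 1, which opens the heme ring and frees its iron (ENSG00000100292; chromosome 22, 35380361 to 35394214, plus strand). It had 13.64 and 4.22 TPM in GFP-positive libraries, against 17.58 and 10.24 TPM in GFP-negative libraries. The fractions overlapped, and the GFP-positive libraries alone differed by 3.23-fold. The log2 fold change of -0.73 ± 0.59 (SE; 95% interval -2.16 to 0.71; limma adjusted p = 0.655) was 0.02 with GFP-positive replicate 2 left out, so its sign rests on that library, and -1.47 with GFP-positive replicate 1 left out. HMOX1 responds to the factor NRF2, the product of NFE2L2, and to its opponent BACH1. Of 13 regulators and NRF2 targets tested, limma called 0 (1 at an unadjusted p under 0.05, against 14.1% of all tested genes). Their median log2 fold change was 0.10. KEAP1, which marks NRF2 for destruction, had 104 and 139 TPM in GFP-positive libraries and 81.3 and 73.9 TPM in GFP-negative libraries (limma adjusted p = 0.252). The fractions did not overlap for it. The other regulator named by size, MAFK, a small MAF partner of NRF2, had 14.2 and 21.0 TPM in GFP-positive libraries and 8.77 and 17.5 TPM in GFP-negative libraries. Among the targets, GCLM, a subunit of the first enzyme of glutathione synthesis, had 11.1 and 6.72 TPM in GFP-positive libraries and 5.06 and 5.26 TPM in GFP-negative libraries. SLC7A11, the cystine transporter, had 2.86 and 5.64 TPM in GFP-positive libraries and 4.72 and 9.54 TPM in GFP-negative libraries. The part of these genes in the HMOX1 values was not tested.

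Of the genes of the iron regulatory proteins, ACO1 was separated between the fractions by its libraries and IREB2 was not. ACO1 encodes IRP1, which is also the cytosolic aconitase when it carries an iron-sulfur cluster (ENSG00000122729; chromosome 9, 32384603 to 32454769, plus strand). It had 25.31 and 23.37 TPM in GFP-positive libraries, against 13.0 and 15.88 TPM in GFP-negative libraries. Both GFP-positive libraries lay well above both GFP-negative ones, with a ratio of means of 1.69. The log2 fold change of 0.72 ± 0.29 (SE; 95% interval 0.02 to 1.42) was the largest positive one of the 10 and did not pass (limma adjusted p = 0.342).

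IREB2 encodes IRP2, which is broken down when iron is plentiful (ENSG00000136381; chromosome 15, 78437431 to 78501456, plus strand). It had 52.87 and 48.79 TPM in GFP-positive libraries, against 51.63 and 64.04 TPM in GFP-negative libraries. The fractions overlapped, and the log2 fold change of -0.18 ± 0.21 (SE; 95% interval -0.68 to 0.33; limma adjusted p = 0.781) was -0.02 without GFP-negative replicate 2. IREB2 was the more abundant of the pair everywhere, by 2.09-fold in each GFP-positive library, against 3.97-fold and 4.03-fold in GFP-negative libraries. This ratio was chosen after its values were seen, has no test, and differed by -1.94 to -1.88 between the fractions with each library left out in turn.

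The gap between replicates was wider among less abundant genes. Among genes with a mean of 1 to 10 TPM, the median gap between replicates on the log2(TPM + 1) scale was 0.63 in GFP-positive and 0.55 in GFP-negative cells. Among genes above 1000 TPM it was 0.14 in GFP-positive and 0.16 in GFP-negative cells. SLC40A1 and TFR2 belong to the low class. The libraries of SLC40A1 were 0.02 apart in GFP-positive cells and 1.16 in GFP-negative cells, and those of TFR2 were 0.55 apart in GFP-positive cells and 0.84 in GFP-negative cells. The GFP-positive libraries of HMOX1 were 1.49 apart, against a median of 0.32 for genes of 10 to 100 TPM. FTL was 0.01 apart in GFP-positive cells but 0.35 in GFP-negative cells, above the median for its level.

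**Figure D4:**
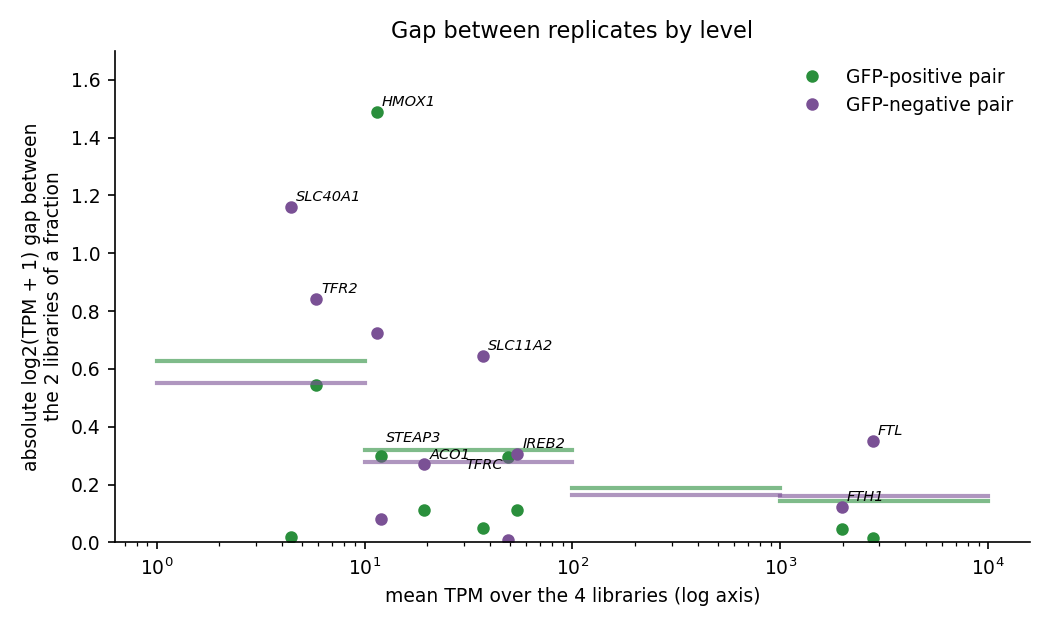
Absolute gap between the 2 libraries of a fraction on the log2(TPM + 1) scale, against mean TPM on a log axis, for the 10 iron genes (points, 1 for each fraction). Horizontal lines are the median gaps of all tested genes by class of level, from 0.63 (GFP-positive) and 0.55 (GFP-negative) at 1 to 10 TPM down to 0.14 (GFP-positive) and 0.16 (GFP-negative) above 1000 TPM. HMOX1 in GFP-positive cells, at 1.49, has the widest gap.

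Beyond the 10 genes, none of the other listed genes of iron handling passed the test. The list of 64 symbols held 62 rows and 53 tested genes, of which limma called 0, against 0.447% of all tested genes. An unadjusted p under 0.05 was found for 8 of the 53, 4 in each direction, against 14.1% of all tested genes. The median log2 fold change was 0.01, beside 0.02 for all tested genes, with 27 above 0 and 26 below. Libraries of the groups did not overlap for 20 of the 53, against 44.3% of all tested genes. The smallest adjusted p belonged to SLC25A37, which encodes mitoferrin 1, the importer of iron into mitochondria of erythroid cells. It had 201 and 209 TPM in GFP-positive libraries, against 100 and 107 TPM in GFP-negative libraries. Replicates were close and the fractions far apart, with a difference of 0.98 ± 0.14 on the log2 scale (SE; limma adjusted p = 0.0601). When only genes with a mean above 5 TPM were tested, limma called it.

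BLVRB and BLVRA encode reductases of biliverdin, the product of heme oxygenase. Of the 10 tested genes of their role, heme transport and breakdown, 6 lay above 0 and 4 below. Libraries of the fractions did not overlap for 1 higher and 3 lower genes of the role, against 22.8% and 21.5% of all tested genes. BLVRB had 25.6 and 37.2 TPM in GFP-positive libraries, against 8.10 and 11.3 TPM in GFP-negative libraries. It was the gene of this role with the largest log2 fold change, 1.59 ± 0.34 (SE; limma adjusted p = 0.126). BLVRA had 14.5 and 21.75 TPM in GFP-positive libraries and 5.99 and 18.65 TPM in GFP-negative libraries, which overlapped. In endosome recycling, EXOC6, an exocyst subunit needed for transferrin cycling in mouse red cell precursors, had 18.7 and 21.2 TPM in GFP-positive libraries and 10.8 and 8.66 TPM in GFP-negative libraries (limma adjusted p = 0.267). SNX3, which returns the transferrin receptor to the surface, had 282 and 199 TPM in GFP-positive libraries and 414 and 272 TPM in GFP-negative libraries, with overlap. Among iron-sulfur cluster genes, BOLA3, a late-acting assembly factor, had 67.4 and 72.9 TPM in GFP-positive libraries and 44.2 and 26.6 TPM in GFP-negative libraries (limma adjusted p = 0.202). It was higher in both GFP-positive libraries. HSCB, a co-chaperone of cluster transfer, had 32.0 and 10.35 TPM in GFP-positive libraries and 35.0 and 28.4 TPM in GFP-negative libraries. The 13 cluster genes as a group had a median log2 fold change of 0.09.

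**Figure D5:**
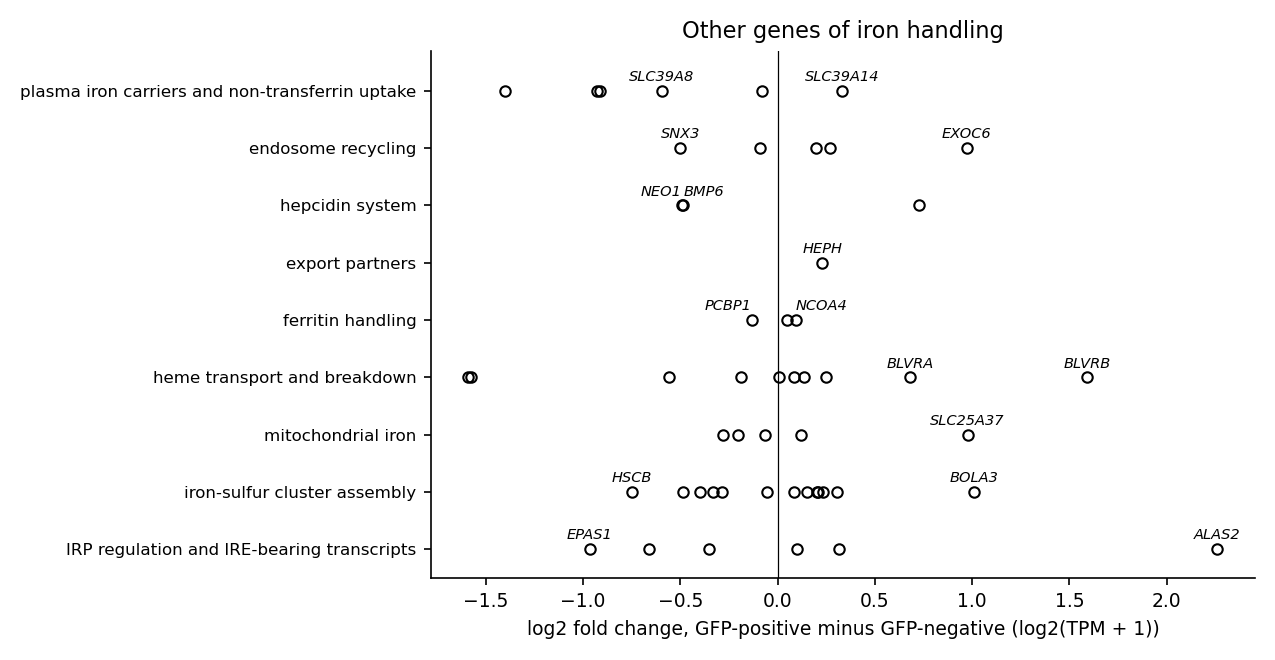
Log2 fold change, GFP-positive minus GFP-negative on the log2(TPM + 1) scale, for tested genes of iron handling outside the set, by role. Each circle is a gene, and names mark up to 2 genes a role with the largest absolute change among those of at least 5 TPM on average. Circles lie on both sides of 0, and ALAS2 lies farthest to the right at 2.26.

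Plasma iron carriers, transferrin itself among them, and genes of uptake without transferrin were listed together. Of the 6 tested, 5 lay below 0, as did 7442 of all 15425 tested genes. Libraries of the fractions overlapped for 3 of the 6. They did not overlap for 3 lower ones, against 21.5% of all tested genes. Limma called none (1 at an unadjusted p under 0.05, against 14.1% of all tested genes). SLC39A8, the metal transporter ZIP8, had 15.2 and 26.8 TPM in GFP-positive libraries, against 34.8 and 27.8 TPM in GFP-negative libraries. SLC39A14, the related ZIP14, had 51.6 and 72.6 TPM in GFP-positive libraries, against 33.2 and 70.35 TPM in GFP-negative libraries. The fractions barely separated for SLC39A8 and overlapped for SLC39A14. Hepcidin, the hormone that removes ferroportin from the membrane, is induced by BMP6, which had 5.23 and 7.88 TPM in GFP-positive libraries and 6.76 and 12.97 TPM in GFP-negative libraries, with overlap. NEO1, which binds the BMP co-receptor hemojuvelin, had 39.7 and 20.4 TPM in GFP-positive libraries and 40.45 and 40.55 TPM in GFP-negative libraries. HEPH, a membrane ferroxidase that works with ferroportin, had 104 and 96.3 TPM in GFP-positive libraries and 74.0 and 98.3 TPM in GFP-negative libraries. It overlapped between fractions in which SLC40A1 did not.

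Partners of ferritin overlapped between the fractions. NCOA4, the receptor that brings ferritin to lysosomes, had 156 and 126 TPM in GFP-positive libraries, against 127 and 135 TPM in GFP-negative libraries. PCBP1, an iron chaperone that loads ferritin, had 428 and 395 TPM in GFP-positive libraries, against 478 and 425 TPM in GFP-negative libraries. All 3 tested genes of this role had log2 fold changes from -0.13 to 0.10, beside 0.60 for FTL. Of 6 other genes whose messages are known to carry an IRE or that control the IRE-binding proteins, limma called 0. An unadjusted p under 0.05 was found for 1 of them, against 14.1% of all tested genes. EPAS1, a hypoxia factor of endothelium with a 5′ element, had 13.6 and 12.7 TPM in GFP-positive libraries and 24.46 and 29.01 TPM in GFP-negative libraries (limma adjusted p = 0.222). ALAS2, the erythroid enzyme of heme synthesis with a 5′ element, had 22.5 and 3.21 TPM in GFP-positive libraries and 3.31 and 0 TPM in GFP-negative libraries, which overlapped (limma adjusted p = 0.405).

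By distance between deviations of log2(TPM + 1) from the gene's mean over the 4 libraries, the genes nearest to TFRC were MAP4K5, DNM1 and HBEGF, at 0.0300, 0.0356 and 0.0358. Within a distance of 0.2 of TFRC lay 601 tested genes. The genes nearest to SLC40A1 were EIF2B5-AS1, OTOG and FRMD5, at 0.0698, 0.139 and 0.163, and 4 tested genes lay within 0.2. EIF2B5-AS1 is an antisense gene, and whether reads were counted by strand is not given in the sources used here. With 4 libraries, such likeness is a description only.

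Across the whole series, 19 genes were called higher and 50 lower in GFP-positive cells by limma. Without GFP-negative replicate 1 the call was 17 higher and 1 lower, and without GFP-negative replicate 2 it was 36 higher and 29 lower. GATA2, which carries the reporter, had 302 and 385 TPM in GFP-positive libraries, against 80.2 and 87.3 TPM in GFP-negative libraries. Of 10 endothelial markers, 9 had a row and were tested, and none was at 0. Limma called 1 of the 9 lower, against 0.324% of all tested genes, and all 9 were lower at an unadjusted p under 0.05, against 7.38%. The called gene was CD34, a marker of the sort itself, with 458 and 536 TPM in GFP-positive libraries, against 1232 and 1199 TPM in GFP-negative libraries (limma adjusted p = 0.0316). The endothelial markers summed to 2422 and 2629 TPM in GFP-positive libraries, against 4532 and 4980 TPM in GFP-negative libraries, so both fractions held endothelial markers. Genes listed as markers of other cell types were present too. Mesenchymal markers summed to 1835 and 1865 TPM in GFP-positive libraries and 983 and 1212 TPM in GFP-negative libraries, most of it TAGLN and COL1A1. Libraries of the fractions overlapped for 6 of the 9 mesenchymal markers and were separate for 3 higher ones, against 22.8% of all tested genes. Megakaryocyte markers summed to 160 and 178 TPM in GFP-positive libraries and 156 and 157 TPM in GFP-negative libraries, with PPBP at 0 throughout. The abundant megakaryocyte genes lay on opposite sides of 0: ITGA2B had 59.2 and 79.6 TPM in GFP-positive libraries, against 25.6 and 30.9 TPM in GFP-negative libraries, and VWF, also an endothelial gene, had 37.0 and 33.1 TPM in GFP-positive libraries, against 86.9 and 73.0 TPM in GFP-negative libraries. Pluripotency markers summed to 463 and 570 TPM in GFP-positive libraries and 389 and 396 TPM in GFP-negative libraries, most of it LIN28A and DPPA4. Yet 3 of the 4 tested pluripotency genes lay below 0, among them POU5F1, named after its values were seen, with 0.93 and 0.03 TPM in GFP-positive libraries, against 9.68 and 5.88 TPM in GFP-negative libraries (limma adjusted p = 0.131). By limma, 0 of 9 mesenchymal, 0 of 6 megakaryocyte and 0 of 4 pluripotency genes tested were called (3, 3 and 2 at an unadjusted p under 0.05, against 14.1% of all tested genes). The part of these marker lists in the iron gene values was not tested.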

How the data were processed

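Per the labels' protocols, total RNA of the 4 samples was extracted with Trizol and built into libraries by an Illumina TruSeq RNA kit. The authors deposited 1 table of TPM per library, with an Ensembl identifier and a symbol for each of 28285 genes. The unit was read from the values, which summed to between 996324 and 997293. Bowtie, RSEM, hg19 and mm10 are named in the submitters' processing notes, with no version or role. The annotation is not given in the sources used here. Read depth is unknown, because TPM keeps none, so no counting interval is given.

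Groups came from the sample titles. A count test had been considered, but only TPM was at hand. A linear model (limma 3.58.1, R 4.3.3, variance trend) was fitted on log2(TPM + 1) for genes with at least 1 TPM in 2 libraries, a scale that understates changes of low genes. Alternatives were a pseudocount of 0.1, no filter, a mean above 5 TPM, upper quartile scaling, no variance trend, a block for the replicate number and leaving out each library. Members and lists were chosen with earlier results of these data known. All 10 genes are named. From the other iron genes and the HMOX1 list, genes were named if called, or if among the 2 largest log2 fold changes of their role with a mean of at least 5 TPM. In these lists 1 gene is counted but not reported here, and it is left out of the plot of other iron genes. From marker lists, the 2 most abundant genes and those at 0 throughout could be named. HBG2, POU5F1, CD163, FLVCR2 and HMOX2 were added after their values were seen. Gene positions and transcripts came from GENCODE v29 on GRCh38, matched by identifier.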

Additional observations from a re-analysis of the deposited data

How the results depend on the processing

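By limma, 0 of the 10 iron genes were called in the fit as reported and under 9 of 10 alternatives. The exception was the replicate block, a fit with the replicate number as a term, which called 1, FTL (limma adjusted p = 0.0117). The labels do not say whether the numbers pair the samples. Deviations of same-numbered libraries from their group means correlated at 0.07 over all tested genes. This cannot decide the question, because the gap between replicates is wide among less abundant genes. The replicate block also called 2 of the other iron genes, BLVRB and SLC25A37, and 596 of all genes (228 higher, 368 lower) against 69 as reported (19 higher, 50 lower). With a mean above 5 TPM, 1 other iron gene (SLC25A37) and 164 of all genes were called, and SLC40A1 could not be tested because its mean is lower. Upper quartile scaling called 128 of all genes. A pseudocount of 0.1, no filter and no variance trend each called 0 (2101, 2230 and 2072 genes at an unadjusted p under 0.05). With each library left out, 18 to 65 of all genes were called (10 to 36 higher, 1 to 48 lower), 0 of the 10 iron genes and 0 of the other iron genes. With a library left out, TFRC ran from -0.029 to 0.27 and HMOX1 from -1.47 to 0.019 on the log2 scale, both reversed without GFP-positive replicate 2. The other 8 genes kept their direction in every setting run for them, with FTL at 0.42 to 0.77, ACO1 at 0.59 to 0.85 and SLC40A1 at -2.24 to -1.08. Apart from the settings named, the cause of each shift was not tested. What read depth limits cannot be given, since TPM keeps no depth.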
